A study of Mus musculus with 18 samples.

Results

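The chemokines, the tumour necrosis factor (TNF) superfamily and their receptors were followed in mouse dorsal root ganglia after nerve and spinal cord surgery. The members were the rows of the deposited count table whose gene symbol had the form Ccl, Ccr, Cxcl or Cxcr with a number, Tnf, or Tnfsf or Tnfrsf with a number and at most 1 letter. This rule took 38 of 15730 genes, of which 16 were chemokine ligands, 6 chemokine receptors, 3 TNF superfamily ligands and 13 receptors of the TNF receptor superfamily. The gene Tnf itself was not in the count table.

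All mice were C57BL/6 and 6-8 weeks old, and the L4 to L6 ganglia that supply the sciatic nerve were taken 24 hours after surgery. The 6 groups had 3 samples each, 18 in all, and a sample held the pooled ganglia of 2 mice. Sham_Saline was the sham procedure with saline, SNA_Saline was sciatic nerve injury with saline, SNA_NAC was sciatic nerve injury with N-acetyl-cysteine, an antioxidant, at 30 mM, and Sham_H202 was the sham procedure with 13 mM hydrogen peroxide. DCA was a dorsal column injury in the spinal cord, where the central axons of these sensory neurons run, and LAM was laminectomy, the bone removal that exposes the cord. The labels name no transgene or deletion, and the sex of the mice is not given in the sources used here.

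Chemokines are small secreted proteins that guide leukocytes through G protein-coupled receptors. Ccl2, Ccl7 and Ccl12 are ligands of Ccr2, the receptor of inflammatory monocytes, and neurons and glia of an injured ganglion are known sources of Ccl2. TNF superfamily ligands bind receptors that recruit TRAF adaptors or, where they carry a death domain, caspase complexes, and many of these receptors feed into NF-kB signalling. Tnfrsf12a, also called Fn14, is the receptor of Tnfsf12 (TWEAK). Tnfrsf21, also called death receptor 6, is a death domain receptor abundant in neurons.

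RefSeq (GRCm38.p6) held a promoter for 27 of the 38 members, with 30 promoters in all, and for 5 of the 7 members that passed in any comparison; 4 are shown. The 250 bases before the transcription start follow, 5′ to 3′ on the gene's strand, for the ligand and the receptor with the largest changes among those with an entry (Ccl12 and Tnfrsf12a), for the called gene with a motif match (Tnfrsf1b) and for the member with the most matches (Cxcl10, which passed in no comparison). They lie at chr11:82101595-82101844 on the plus strand, and at chr17:23677450-23677699, chr4:145246871-145247120 and chr5:92348890-92349139 on the minus strand. Capitals mark matches to the AP-1 motif TGANTCA, the cyclic AMP response element TGACGTCA, the kappaB motif or the STAT motif TTCNNNGAA, searched on both strands.
Ccl12: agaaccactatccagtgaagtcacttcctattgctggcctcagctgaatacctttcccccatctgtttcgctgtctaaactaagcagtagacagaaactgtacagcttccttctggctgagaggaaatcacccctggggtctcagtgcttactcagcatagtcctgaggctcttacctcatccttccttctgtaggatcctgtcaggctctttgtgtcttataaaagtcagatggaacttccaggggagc
Tnfrsf12a: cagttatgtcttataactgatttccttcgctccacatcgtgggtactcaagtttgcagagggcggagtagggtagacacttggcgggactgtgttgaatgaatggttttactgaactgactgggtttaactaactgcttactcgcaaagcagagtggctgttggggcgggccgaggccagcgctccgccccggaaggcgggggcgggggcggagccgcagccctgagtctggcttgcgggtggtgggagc
Tnfrsf1b: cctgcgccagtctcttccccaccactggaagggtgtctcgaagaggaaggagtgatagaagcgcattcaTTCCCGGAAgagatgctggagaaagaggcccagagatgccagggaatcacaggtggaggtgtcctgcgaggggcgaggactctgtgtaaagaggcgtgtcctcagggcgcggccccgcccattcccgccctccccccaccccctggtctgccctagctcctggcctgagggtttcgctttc
Cxcl10: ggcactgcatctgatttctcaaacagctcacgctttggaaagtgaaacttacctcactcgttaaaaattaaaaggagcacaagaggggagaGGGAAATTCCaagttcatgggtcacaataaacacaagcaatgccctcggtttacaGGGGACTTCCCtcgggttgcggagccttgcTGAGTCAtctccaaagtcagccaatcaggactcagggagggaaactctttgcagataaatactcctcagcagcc
The Tnfrsf1b promoter held 1 STAT match, TTCCCGGAA, which began 181 bases before the start. The Cxcl10 promoter held 3 kappaB matches, of which GGGGACTTCC and GGGACTTCCC overlapped, and 1 AP-1 match. The windows of Ccl12 and Tnfrsf12a held none of the 4 motifs. In windows of 300 bases (250 before to 50 after the start), an AP-1 match was found in 6 of the 30 member promoters against 7.81% of all 32851 RefSeq promoters, a kappaB match in 4 against 8.46%, a STAT match in 5 against 8.30% and the cyclic AMP response element in 0 against 1.79%. Both Tnfsf13b windows overlap and hold the same AP-1 site, which was counted in each. The matches are of letters only and describe no binding.

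A group of 6 ligands of the CC family are neighbours on chromosome 11 in GRCm38. Ccl2 lies at 82035571-82037453, Ccl7 at 82045712-82047525, Ccl11 at 82057823-82062955, Ccl12 at 82101845-82103400 and Ccl8 at 82115185-82116799, all on the plus strand, and Ccl1 follows on the minus strand. Ccl9 and Ccl6 lie further along the same chromosome. These paralogs are similar in sequence, as are Tnfrsf22 and Tnfrsf23, and how reads shared between copies or between strands were counted is not given in the sources used here. Of the members, 7 overlap a protein-coding gene in GENCODE M21; Ccr10 lies wholly opposite Cntnap1, Cxcl10 opposite Art3 and Ccl2 opposite the gene model Gm17268, and Tnfsf12 is overlapped over its whole length on the same strand by Tnfsfm13. The values of these genes are uncertain for that reason.

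Total counts ran from 6472476 (Sham_H202 replicate 3) to 42435331 (SNA_NAC replicate 1). Markers of the labelled tissue were high in every sample, at 10552 to 16183 CPM (counts scaled to library size with TMM factors) summed over 9 neuron genes, 2682 to 3584 over 6 satellite glia genes and 6265 to 10306 over 5 Schwann cell genes. The summed CPM of the other lists was 58.2 to 93.0 for macrophages (10 of 11 genes in the table), 230.7 to 584.7 for neutrophils (11 of 11), 1.28 to 3.92 for T cells (2 of 9, without Cd3d, Cd3e and Cd3g), 4.32 to 11.7 for B cells (4 of 5), 737 to 1327 for fibroblasts, 77.6 to 98.5 for endothelium, 164 to 840.2 for red blood cells and 5.70 to 1102 for skeletal muscle. No marker in the table was at 0 in a whole group. Sham_Saline replicate 2, which held the highest muscle sum, stood apart on the first principal component, which held 38.6% of the variance. In tissue RNA, a change in the number of cells of a type and a change in RNA per cell cannot be told apart.

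Levels per transcript length differed widely among the members. The deposited FPKM (fragments per kilobase of transcript, scaled to library size) placed Tnfrsf21 first, at a mean of 61.8 over the 18 samples, which was 38.4% of the FPKM summed over all members. Tnfrsf12a followed at 12.8 FPKM, then the eosinophil chemokine Ccl11 at 11.3, the TNF receptor Tnfrsf1a at 10.3 and Cxcr4, the receptor of Cxcl12, at 8.02. The ranges of these 4 over the samples overlapped, so their order is not fixed, whereas the lowest sample of Tnfrsf21 (46.6 FPKM) was above the highest of any other member (26.9 FPKM, Tnfrsf12a). Ccl12 had 5.0 FPKM, Cxcl12 4.55, Ccl6 4.54, Ccl7 3.82 and Ccl2 3.18. In all, 24 members had a mean of at least 1 FPKM, and the lowest was Ccl1 at 0.300. Every member had counts in every sample, and 28 had at least 10 in each.

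**Figure D1:**
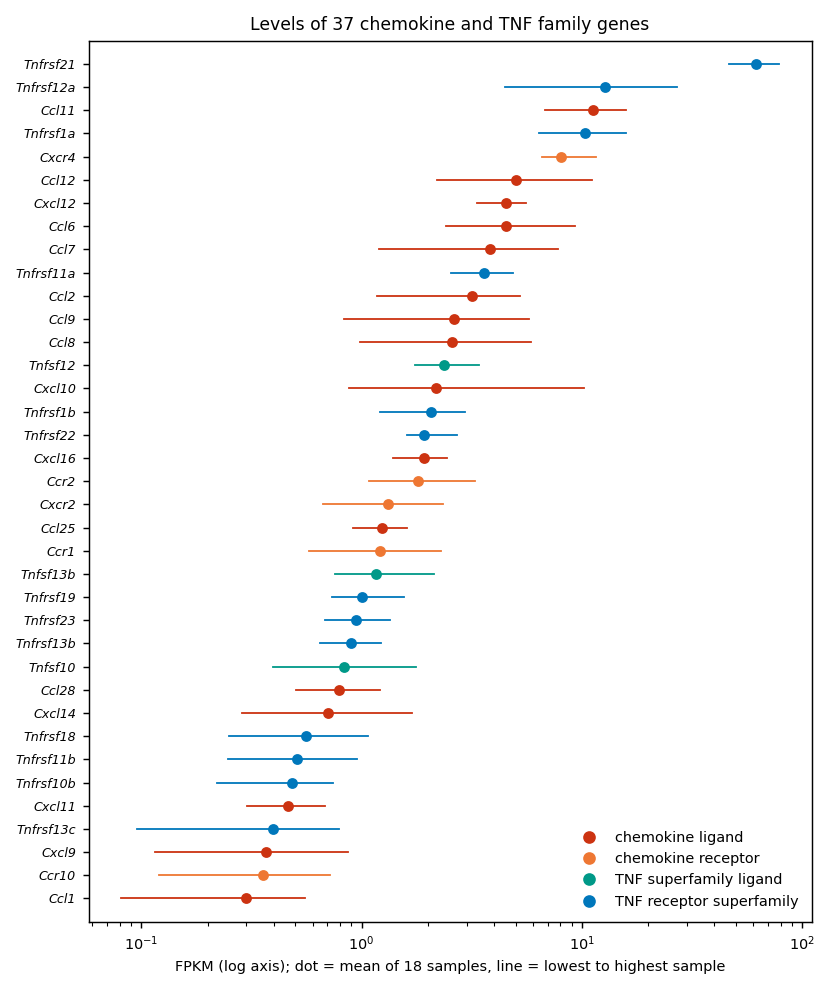
Mean FPKM of 37 of the 38 members over 18 samples (dots) with the lowest and highest sample (lines), on a log axis, coloured by role. Tnfrsf21 stands above all other members, and Cxcl10 has a long upper line that ends at 1 sample of 10.2 FPKM.

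Sciatic nerve injury was compared with its sham to ask which of these genes the ganglion raised or lowered after a peripheral axotomy. After injury 5 members rose and none fell: the monocyte chemokines Ccl7 and Ccl12 and the receptors Tnfrsf12a, Tnfrsf21 and Tnfrsf1b. These 5 of 38 stand beside 430 of all 15730 genes, or 2.73%, at an adjusted p under 0.05 (edgeR quasi-likelihood test, Benjamini-Hochberg over all genes), and beside 2.16% that rose. At an unadjusted p under 0.05 there were 9 higher and 2 lower members, beside 22.5% of all genes in either direction. There was no overlap between the groups for 15 members, 13 of them higher after injury, against 19.1% of all genes in either direction. The median log2 fold change was 0.16 over the members and -0.03 over all genes.

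Among the ligands, Ccl7 changed most. Its CPM was 0.953, 1.35 and 1.97 in Sham_Saline and 6.4, 5.62 and 4.06 in SNA_Saline. Every injured sample was above every sham sample. The log2 fold change was 1.94 ± 0.36 (SE, n = 3 per group; edgeR adjusted p = 0.00584), a 3.83-fold rise. Ccl12, which mice carry beside Ccl2 as a further monocyte chemoattractant, had 1.29, 1.26 and 1.90 CPM in Sham_Saline and 5.74, 5.30 and 3.07 in SNA_Saline. The third injured sample was the lowest for both genes, and neither gene's groups overlapped. The rise of Ccl12 was 3.20-fold (log2 1.68 ± 0.37, SE; edgeR adjusted p = 0.0212). It missed the threshold without Sham_Saline replicate 2 (adjusted p = 0.0977), without SNA_Saline replicate 1 (0.139) and without SNA_Saline replicate 2 (0.0916).

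Ccl2, the best known ligand of Ccr2, had 2.38, 3.28 and 2.99 CPM in Sham_Saline and 5.87, 6.16 and 4.56 in SNA_Saline, again without overlap. Its log2 fold change of 0.93 ± 0.25 (SE) missed the threshold narrowly (edgeR adjusted p = 0.0531; DESeq2 adjusted p = 0.0229). Ccl8, of the same cluster, had 0.858, 0.800 and 1.15 CPM in Sham_Saline and 2.31, 1.95 and 2.28 in SNA_Saline, on 17 to 35 counts per sample (log2 fold change 1.24 ± 0.47, SE; edgeR adjusted p = 0.160). Ccl11, which lies between Ccl7 and Ccl12, had a log2 fold change of 0.27 ± 0.24 (SE), and its 10.3 CPM in SNA_Saline replicate 3 was below all 3 sham values. Cxcl12, a chemokine of stromal cells that acts on Cxcr4, had 35.4, 29.0 and 31.1 CPM in Sham_Saline and 42.4, 38.6 and 40.0 in SNA_Saline. Here too the ranges were apart, and the log2 fold change was 0.34 ± 0.12 (SE; edgeR adjusted p = 0.125). Without Sham_Saline replicate 1 its adjusted p was 0.0348, in a fit where 16.2% of all genes passed. Leaving out any other sample of this comparison did not bring it past the threshold. The other 10 ligands (Ccl1, Ccl6, Ccl9, Ccl25, Ccl28, Cxcl9, Cxcl10, Cxcl11, Cxcl14 and Cxcl16) had an unadjusted p above 0.05.

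**Figure D2:**
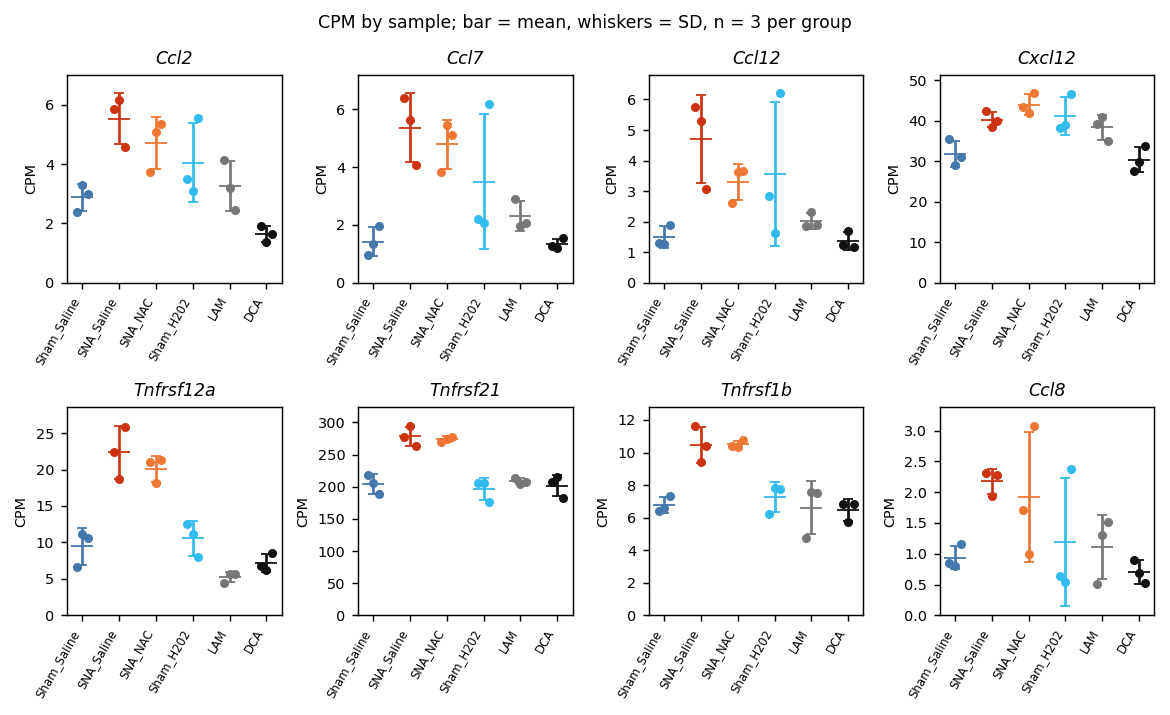
CPM of Ccl2, Ccl7, Ccl12, Cxcl12, Tnfrsf12a, Tnfrsf21, Tnfrsf1b and Ccl8 in each sample of the 6 groups (points), with the mean (bar) and SD (whiskers), n = 3. The SNA_Saline samples lie above the Sham_Saline samples in each of the 8 panels, and Sham_H202 replicate 3 stands above its group in the 5 panels of Ccl2, Ccl7, Ccl12, Cxcl12 and Ccl8.

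No chemokine receptor passed the test. Ccr2, the receptor of the ligands that rose, had 10.5, 6.95 and 8.21 CPM in Sham_Saline against 9.63, 11.5 and 9.91 in SNA_Saline. These ranges overlapped, and the 95% interval of its log2 fold change ran from -0.33 to 0.86. Cxcr4 had 15.3, 15.5 and 16.8 CPM against 16.0, 12.6 and 13.0, with an interval from -0.54 to 0.16. Ccr10 was lower, at 0.953, 1.18 and 1.22 CPM against 0.528, 0.216 and 0.784, on only 2 to 11 counts per injured sample (log2 fold change -1.04 ± 0.40, SE; edgeR adjusted p = 0.164). Ccr1 and Cxcr2 had an unadjusted p above 0.05.

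Among the receptors of the TNF family, Tnfrsf12a had the smallest p of all members. Its CPM was 6.58, 11.2 and 10.7 in Sham_Saline and 22.4, 18.7 and 25.9 in SNA_Saline, so the lowest injured sample stood well above the highest sham sample. The rise was 2.36-fold (log2 1.24 ± 0.21, SE; edgeR adjusted p = 0.00248). Its ligand Tnfsf12, which shares its strand with Tnfsfm13, had 6.43, 9.01 and 6.85 CPM in Sham_Saline and 9.50, 5.73 and 8.41 in SNA_Saline. These values overlapped fully, and the 95% interval of the log2 fold change ran from -0.38 to 0.57.

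Tnfrsf21, the most abundant member, had 218, 206 and 188 CPM in Sham_Saline and 277, 294 and 263 in SNA_Saline. The rise was small beside that of Tnfrsf12a, at 1.36-fold, yet the groups were well apart (log2 0.45 ± 0.09, SE; edgeR adjusted p = 0.0125). The gene missed the threshold without Sham_Saline replicate 3 (adjusted p = 0.0504), without SNA_Saline replicate 1 (0.0591) and without SNA_Saline replicate 2 (0.0781). Tnfrsf1b, the TNF receptor that lacks a death domain, had 6.39, 6.57 and 7.33 CPM in Sham_Saline and 11.6, 9.40 and 10.4 in SNA_Saline. It rose 1.56-fold (log2 0.64 ± 0.17, SE; edgeR adjusted p = 0.0487, just inside the threshold). With the replicate number, which is the lane, as a block its adjusted p was 0.0714, and it missed the threshold when any of 5 of the 6 samples was left out (adjusted p = 0.0614 to 0.255; Sham_Saline replicates 2 and 3 and SNA_Saline replicates 1, 2 and 3). Tnfrsf1a, the TNF receptor with a death domain, had 26.0, 41.6 and 26.6 CPM in Sham_Saline and 28.8, 25.7 and 32.5 in SNA_Saline. Its groups overlapped, with a log2 fold change of -0.11 ± 0.22 (SE).

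Tnfrsf13c, the BAFF receptor of B cells, was lower after injury at 0.906, 0.926 and 1.29 CPM against 0.198, 0.432 and 0.713, on 3 to 10 counts per injured sample (log2 fold change -1.19 ± 0.43, SE; edgeR adjusted p = 0.142). Beside it, 4 B cell markers summed to 9.68 to 11.7 CPM in Sham_Saline and 4.32 to 9.62 in SNA_Saline, and the part of these cells in the value was not tested. Tnfsf13b (BAFF) and Tnfsf10 (TRAIL) had an unadjusted p above 0.05, as did the receptors Tnfrsf10b, Tnfrsf11a, Tnfrsf11b, Tnfrsf13b, Tnfrsf18, Tnfrsf19, Tnfrsf22 and Tnfrsf23. The values of Tnfrsf22 and Ccl25 are uncertain, since their deposited FPKM departed from their counts.

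The summed CPM of the 10 macrophage markers moved in the same direction as the monocyte chemokines. It was 76.9 to 78.6 in the Sham_Saline samples and 86.6 to 90.6 in the SNA_Saline samples. The single markers were mixed, with 7 above 0 and 3 below. Mrc1 had a mean of 14.2 CPM in Sham_Saline and 22.6 in SNA_Saline, whereas Csf1r had 24.9 and 21.5. None of the 10 passed the test, 2 were higher at an unadjusted p under 0.05, and their median log2 fold change was 0.21. All 6 skeletal muscle markers were below 0 (0 at that threshold, median -1.77), as were all 5 red blood cell markers (0 at that threshold, median -0.33). Of 9 neuron markers 7 were below 0, 1 of them at that threshold, and 2 were above (median -0.37). Of 11 neutrophil markers 7 were below 0, 2 of them at that threshold, and 4 were above (median -0.19). None of these passed. The part of all these lists in the rise of Ccl7, Ccl12 and the receptors was not tested. Without Sham_Saline replicate 2, the library that stood apart, 3 members passed (Ccl7, Tnfrsf12a and Tnfrsf21), beside 1.48% of all genes. In a fit of only the 6 samples of this comparison no member passed (edgeR adjusted p = 0.113 for Tnfrsf12a and 0.0635 for Ccl7), 11 members had an unadjusted p under 0.05, and over all genes 65 passed in place of 430.

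The genes that act downstream of these receptors were counted from listed pathways. Of 29 genes of TNF and NF-kB signalling, all in the table, none passed in any of the 7 comparisons (edgeR; in sciatic injury 1 had an unadjusted p under 0.05). Their median log2 fold change after sciatic injury was -0.07. Of 7 genes in the table from a list of other TNF superfamily genes none passed, among them Ngfr, the low-affinity neurotrophin receptor (log2 fold change -0.50 ± 0.17, SE; edgeR adjusted p = 0.131). These 7 include Tnfsf13os, an antisense gene opposite Tnfsf12 and not itself a family member. Of 11 other genes of the chemokine system, 1 passed in any comparison: the scavenging receptor Ackr4 fell in SNA_NAC against Sham_Saline (log2 fold change -1.34 ± 0.34, SE; edgeR adjusted p = 0.0399). In SNA_Saline its value was -0.97 ± 0.36 (SE; edgeR adjusted p = 0.158).

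N-acetyl-cysteine was given to ask whether an antioxidant changes the response to sciatic injury. No member passed the test between SNA_NAC and SNA_Saline in edgeR, DESeq2 or limma. In edgeR 0% of all genes passed, and at an unadjusted p under 0.05 there were 0 members, against 2.00% of all genes. The groups did not overlap for 1 member, Tnfrsf23, a decoy receptor of TRAIL, with 3.56, 3.46 and 3.49 CPM in SNA_Saline and 4.10, 3.94 and 4.60 in SNA_NAC, against 14.9% of all genes. Ccl12 had the smallest p of the members, with 2.61, 3.63 and 3.65 CPM under N-acetyl-cysteine against 5.74, 5.30 and 3.07, and the ranges overlapped. Its log2 fold change was -0.52 with a 95% interval from -1.25 to 0.21. The intervals were -0.85 to 0.51 for Ccl7, -0.74 to 0.27 for Ccl2, -0.57 to 0.27 for Tnfrsf12a, -0.34 to 0.34 for Tnfrsf1b and -0.22 to 0.17 for Tnfrsf21. The interval was thus widest for Ccl12 and narrowest for Tnfrsf21 among these genes. Neutrophil markers were lower in SNA_NAC, at 230.7 to 309.7 CPM summed over 11 genes against 346.3 to 561.2 in SNA_Saline. Of the 11, 7 were lower at an unadjusted p under 0.05 and none passed. All 5 red blood cell markers were below 0 too (2 at an unadjusted p under 0.05, median log2 fold change -0.95). So were all 6 skeletal muscle markers (0 at that threshold, median -0.80). None of these passed, and the part of blood, muscle or leukocyte content was not tested.

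Against the same Sham_Saline samples, 5 members rose in SNA_NAC: Tnfrsf12a (21, 18.1 and 21.3 CPM; log2 1.09 ± 0.20), Ccl7 (3.84, 5.44 and 5.10 CPM; 1.77 ± 0.35), Tnfrsf21 (269, 274 and 278 CPM; 0.42 ± 0.09), Tnfrsf1b (10.4, 10.3 and 10.7 CPM; 0.64 ± 0.16) and Cxcl12 (43.5, 41.9 and 46.8 CPM; 0.47 ± 0.11, each with its SE). None of these groups overlapped with the sham. In the same order, the adjusted p from edgeR was 0.00583, 0.00908, 0.0167, 0.0408 and 0.0328, and over all genes 3.32% passed, 2.47% higher. With the replicate block 3 members and 2.57% of all genes passed, and Cxcl12 (adjusted p = 0.0532) and Tnfrsf1b (0.0579) did not. Leaving out single samples ended the call of Tnfrsf21 for 4 of the 6 samples (adjusted p = 0.0645 to 0.0799), of Tnfrsf1b for 5 (0.0693 to 0.154) and of Cxcl12 for 5 (0.0770 to 0.173), and in a fit of only these 6 samples no member passed. Ccl12 had a log2 fold change of 1.16 ± 0.37 (SE; edgeR adjusted p = 0.0904) and Ccl2 of 0.70 ± 0.24 (SE; 0.107). Non-overlapping groups were found for 14 members, against 21.2% of all genes. Beside these rises, all 11 neutrophil markers were below 0 in this comparison (8 at an unadjusted p under 0.05, of which 3 passed, median log2 fold change -0.75). All 4 B cell markers were below 0, and 1 of 10 macrophage markers passed, higher. All 5 red blood cell markers were lower at an unadjusted p under 0.05 (median -1.29). All 6 skeletal muscle markers were below 0, 4 of them at that threshold (median -2.74). None of the red blood cell and muscle markers passed, and the part of all these lists was not tested. Because both injury comparisons use the same sham samples, their values are given side by side and are not independent.

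**Figure D3:**
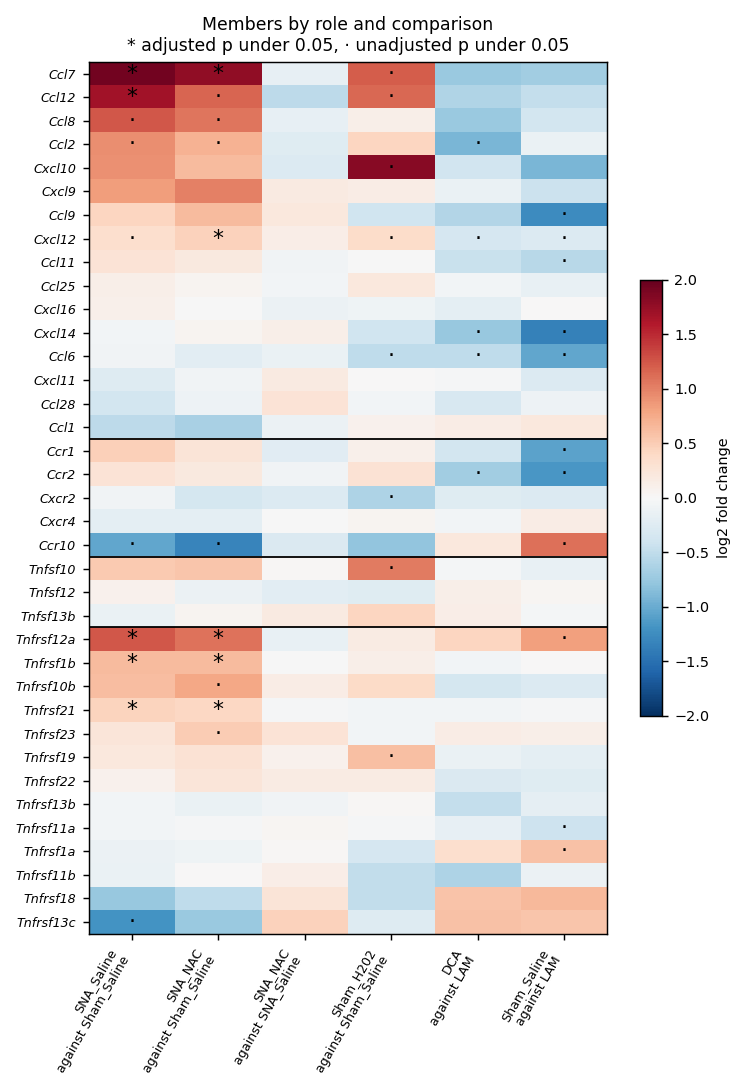
Log2 fold change of 37 members (rows, by role) in 6 comparisons (columns), in colour from -2 to 2, with a star for an adjusted p under 0.05 and a dot for an unadjusted p under 0.05 (edgeR). Stars appear in the columns of SNA_Saline and SNA_NAC against Sham_Saline and in no other, and in the column of DCA against LAM all chemokine ligands but Ccl1 are on the blue side.

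Hydrogen peroxide on the sham nerve was compared with saline to ask whether the oxidant alone changes the ganglion. No member and 0% of all genes passed in edgeR, and no member passed in DESeq2 or limma. At an unadjusted p under 0.05 there were 8 members, 6 of them higher (Tnfsf10, Cxcl12, Ccl7, Cxcl10, Tnfrsf19 and Ccl12) and 2 lower (Ccl6 and Cxcr2), against 9.15% of all genes. The groups did not overlap for 5 members, against 5.43%. Tnfsf10 had 6.21, 4.75 and 9.69 CPM against 3.91, 2.11 and 3.8 in Sham_Saline, a log2 fold change of 1.04 ± 0.31 (SE; edgeR adjusted p = 0.449). Cxcl12 had 38.2, 39.1 and 46.7 CPM against 35.4, 29.0 and 31.1 (0.37 ± 0.12, SE; edgeR adjusted p = 0.449).

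Several of these values rested on 1 library. Cxcl10, an interferon-induced ligand of Cxcr3, had 1.94, 2.17 and 16.2 CPM in Sham_H202 and 1.33, 2.44 and 1.43 in Sham_Saline, and was described after this value was seen. Its log2 fold change of 1.83 ± 0.61 (SE) became 0.24 without Sham_H202 replicate 3. Ccl7 had 2.2, 2.08 and 6.20 CPM and Ccl12 2.85, 1.63 and 6.20 in the peroxide group, and their log2 fold changes of 1.22 and 1.15 became 0.61 and 0.53 without that library. Tnfsf10 and Cxcl12 became 0.73 and 0.28. Sham_H202 replicate 3 was the smallest library and was the highest of its group for 24 of the 38 members and for 40.9% of all genes. It also had the highest neutrophil (536.5 CPM), macrophage (82.3), fibroblast (1327), satellite glia (3574), Schwann cell (8271), endothelial (94.1) and B cell (7.79) sums of its group. Its neuron (10552), T cell (1.75) and red blood cell (248) sums were the lowest of the group, and its muscle sum lay between the others. Against Sham_Saline the whole peroxide group had all 11 neutrophil markers below 0 (3 at an unadjusted p under 0.05, median log2 fold change -0.52). All 4 B cell markers were below 0 (1 at that threshold, median -0.69), and all 5 red blood cell markers were lower at it (median -1.16). Of the 10 macrophage markers 5 were above 0 and 5 below. None of these passed. The part of these cells was not tested.

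Dorsal column injury was compared with laminectomy to ask whether cutting the central branch changes the same genes. No member and 0% of all genes passed in edgeR, and no member passed in DESeq2 or limma. At an unadjusted p under 0.05, 6 members were lower and none higher, among them Ccl2, Cxcl12, Ccr2, Ccl6 and Cxcl14, against 5.04% of all genes in either direction and 1.69% lower. Of the 16 ligands 15 had a log2 fold change below 0, against 7956 of 15730 genes, with a median of -0.42 over the ligands and -0.0038 over all genes. The groups did not overlap for 11 members, 9 of them lower, against 21.7% of all genes. Ccl2 had 4.14, 3.20 and 2.45 CPM in LAM and 1.92, 1.37 and 1.65 in DCA, a log2 fold change of -0.92 ± 0.26 (SE; edgeR adjusted p = 0.624). Cxcl12 had 39.3, 40.9 and 34.9 CPM in LAM and 27.6, 29.9 and 33.8 in DCA (-0.33 ± 0.12, SE; edgeR adjusted p = 0.624). In both genes every DCA sample was below every LAM sample. Tnfrsf12a had 4.45, 5.64 and 5.74 CPM in LAM and 6.71, 6.23 and 8.54 in DCA, higher in each DCA sample (0.43 ± 0.22, SE; edgeR adjusted p = 0.624). Tnfrsf21 and Tnfrsf1b had intervals of the log2 fold change from -0.24 to 0.14 and from -0.40 to 0.30. The macrophage sum was 75.9 to 79.4 CPM in DCA and 71.8 to 93.0 in LAM, with 2 of 10 markers lower at an unadjusted p under 0.05, and its part was not tested.

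The difference between the responses to the 2 injuries was tested directly. There were 4 ligands that differed, each changing more positively after the sciatic than after the spinal injury: Ccl7, Ccl2, Ccl12 and Cxcl12. Over all genes 1.61% differed, 1.23% in this direction. The log2 difference was 2.67 ± 0.51 for Ccl7 (SE; edgeR adjusted p = 0.0188) and 1.85 ± 0.36 for Ccl2 (SE; edgeR adjusted p = 0.0199). It was 2.28 ± 0.54 for Ccl12 (SE; edgeR adjusted p = 0.0448) and 0.67 ± 0.16 for Cxcl12 (SE; edgeR adjusted p = 0.0486). Each of the 4 was above 0 after sciatic injury and below 0 after dorsal column injury, and the DCA against LAM values were -0.74 for Ccl7, -0.92 for Ccl2, -0.60 for Ccl12 and -0.33 for Cxcl12. In the same test, 6 of 9 neuron markers had an unadjusted p under 0.05 (5 lower and 1 higher; median log2 difference -0.76), 7 of 10 macrophage markers were above 0 (2 at an unadjusted p under 0.05; median 0.47) and none of either list passed; their part was not tested. With the replicate block Ccl7 and Ccl2 passed and Ccl12 and Cxcl12 did not (adjusted p = 0.0770 for both). Of the 12 samples, leaving out any of 2 ended the call of Ccl7 (SNA_Saline replicate 1 and LAM replicate 1; adjusted p = 0.0560 to 0.0697), any of 5 that of Ccl2 (0.0502 to 0.0684), any of 9 that of Ccl12 (0.0541 to 0.144) and any of 10 that of Cxcl12 (0.0609 to 0.150). For Tnfrsf21 the log2 difference was 0.50 ± 0.13 (SE; edgeR adjusted p = 0.0640), which did not pass. For Tnfrsf12a the log2 difference was 0.81 ± 0.30 (SE; edgeR adjusted p = 0.0984; 0.000298 with the replicate block and offsets for GC share and length), so a smaller response to dorsal column injury was not established for this receptor.

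**Figure D4:**
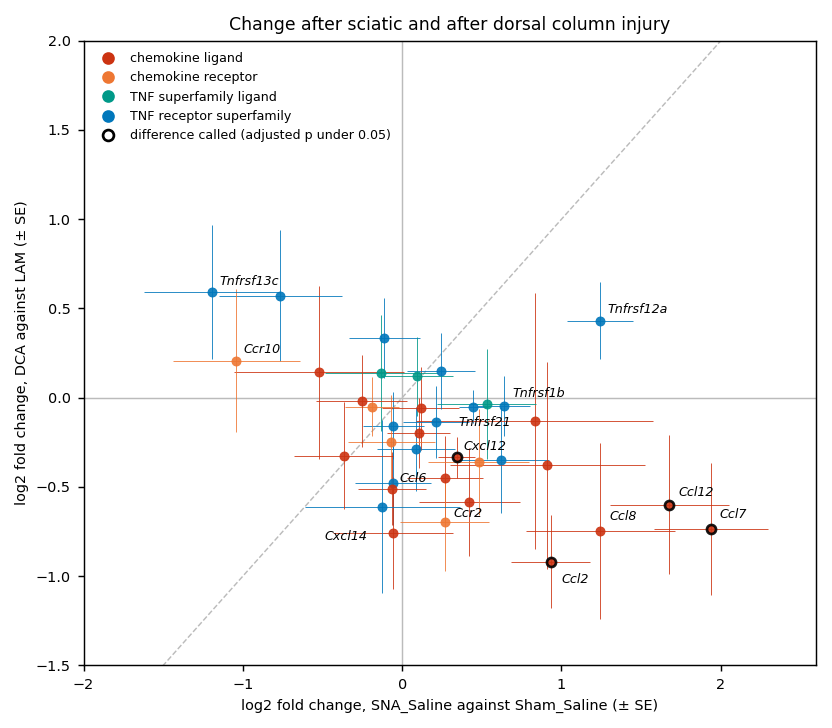
Log2 fold change of 37 members after sciatic nerve injury (SNA_Saline against Sham_Saline, horizontal) and after dorsal column injury (DCA against LAM, vertical), with SE bars, coloured by role; names are given at an unadjusted p under 0.05 in either comparison, and the dashed line marks equal change. Ccl7, Ccl12, Ccl2 and Cxcl12 (black rings) lie to the right of 0 and below it, and Tnfrsf12a lies to the right of 0 and above it.

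The surgical controls were compared to place both injuries on 1 scale. No member passed in edgeR between Sham_Saline and LAM, where 0.0699% of all genes passed. At an unadjusted p under 0.05, 12 members differed, 3 higher in Sham_Saline (Tnfrsf12a, Ccr10 and Tnfrsf1a) and 9 lower (among them Ccl6, Ccr2, Cxcl14, Ccl9, Ccr1, Cxcl12, Ccl11 and Tnfrsf11a), a share near the 30.3% of all genes. Of all genes 10.5% were lower in Sham_Saline at this threshold. The groups did not overlap for 14 members, against 30.6% of all genes. DESeq2 passed 6 members (among them Ccl6, Ccl9, Ccr1 and Ccr2 lower in Sham_Saline, and Tnfrsf12a higher) and 7.25% of all genes, and without Sham_Saline replicate 1 edgeR passed 11 members and 31.8% of all genes.

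The members with the smallest p in this comparison were lower in Sham_Saline. Ccl6, a ligand of Ccr1, had 12.6, 13.7 and 16.8 CPM in LAM and 5.72, 7.24 and 8.28 in Sham_Saline (log2 fold change of Sham_Saline against LAM -1.03 ± 0.21, SE; edgeR adjusted p = 0.104). Ccr2 had 17.6, 18.9 and 21.1 CPM in LAM and 10.5, 6.95 and 8.21 in Sham_Saline (-1.17 ± 0.28, SE; 0.104). In neither gene did LAM overlap with Sham_Saline. Ccl9, Ccr1 and Cxcl14, named after their values were seen, had log2 fold changes of -1.26 ± 0.31, -1.07 ± 0.31 and -1.36 ± 0.33 (SE each; edgeR adjusted p = 0.104 each). The DCA samples of Ccl6 lay between, at 11.3, 9.22 and 9.83 CPM, and those of Ccr2, at 15.5, 10.8 and 9.15, overlapped with Sham_Saline. The macrophage sum did not separate these groups, at 71.8 to 93.0 CPM in LAM and 76.9 to 78.6 in Sham_Saline. Of the 10 macrophage markers, 7 were below 0 and 3 above (median log2 fold change -0.29), with 0 at an unadjusted p under 0.05. At that threshold 4 of 5 Schwann cell markers were higher in Sham_Saline, and 6 of 9 neuron markers differed (4 higher and 2 lower). All 6 skeletal muscle markers were above 0 (1 at that threshold, median log2 fold change 1.67). So were all 5 red blood cell markers (2 at that threshold, median 0.73) and all 4 B cell markers (1, median 0.43). Of the 11 neutrophil markers 6 were above 0 and 5 below. None of these passed. The part of these cells was not tested. Tnfrsf12a ran the other way from Ccl6 and Ccr2, with 4.45 to 5.74 CPM in LAM and 6.58 to 11.2 in Sham_Saline (log2 0.83 ± 0.21, SE; edgeR adjusted p = 0.104).

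**Figure D5:**
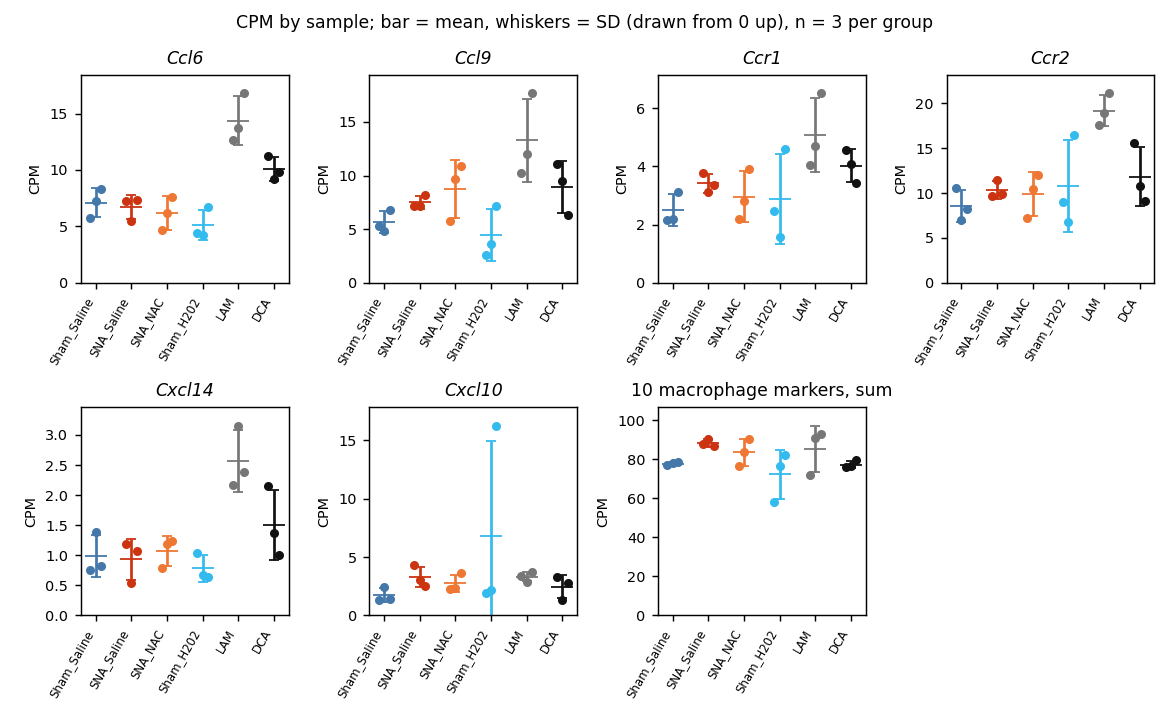
CPM of Ccl6, Ccl9, Ccr1, Ccr2, Cxcl14 and Cxcl10 and the summed CPM of 10 macrophage markers in each sample of the 6 groups (points), with the mean (bar) and SD (whiskers, drawn from 0 up), n = 3. LAM has the highest mean for Ccl6, Ccl9, Ccr1, Ccr2 and Cxcl14, and 1 Sham_H202 sample stands at 16.2 CPM for Cxcl10.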

How the data were processed

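RNA from 18 pooled ganglion samples was sequenced by the authors from a stranded mRNA kit, 6 libraries to each of 3 lanes, per the labels. Per the submitters' processing notes, the tools were TopHat2 2.0.12, Bowtie2 2.2.3, SAMtools 0.1.19, HTSeq 0.6.0, edgeR 3.8.6 and limma 3.22.7 in R 3.1.1, on mm10; their settings and use of strand are not given in the sources used here. The authors deposited whole read counts for 15730 genes, whose lowest mean over samples was 10.1, so low genes had been removed. They also deposited FPKM for 45904 features; for 36 of the 38 members these were the counts rescaled, and Tnfrsf22 and Ccl25 departed.

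The main test on counts was the quasi-likelihood test of edgeR 4.0.16 (R 4.3.3; TMM scaling, filterByExpr), with 18 samples in 1 fit, Benjamini-Hochberg adjustment over all genes and a threshold of 0.05, in 7 comparisons. SEs are the absolute log2 fold change over the square root of F, intervals are 95% from the same fit, and CPM is TMM-scaled. The main edgeR fit, some of its alternatives, the DESeq2 Wald test and limma on log2(FPKM + 1) were tried on simulated counts. The other steps were not. With 3 against 3 samples an exact permutation test cannot go below 0.1. Replicate numbers equal the lane, and this batch label pairs the samples. Same-numbered samples deviated from their group means with mean correlations across genes of -0.24 (SNA_Saline and Sham_Saline), -0.36 (SNA_NAC and Sham_Saline), 0.09 (SNA_NAC and SNA_Saline), 0.30 (Sham_H202 and Sham_Saline), 0.07 (DCA and LAM) and 0.31 (Sham_Saline and LAM). Samples were pools of different mice, so p-values measure the spread between pools. Reads carried no molecular identifiers. Total counts differed 6.56-fold, and the common biological coefficient of variation was 17.4%.

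Members, gene lists, tests and the naming rule were chosen with earlier results of these data known. The rule gave full values to members that passed in any comparison, the next 5 of the sciatic comparison, the 2 smallest p-values of each other comparison, the 2 most abundant of each role, and Ccl2, Tnf, Tnfrsf1a, Tnfrsf1b, Tnfrsf12a, Cxcl12 and Cxcr4. The values of 1 named member are not reported here; it is in the counts and the fits and not in the figures. Marker lists covered macrophages, neutrophils, T cells, B cells, neurons, satellite glia, Schwann cells, fibroblasts, endothelium, skeletal muscle and red blood cells. The alternatives tried were no filter or at least 10 counts per sample, fits of only the groups compared, the size factors of DESeq2 1.42.0 and its Wald test, the replicate block, offsets for GC share and length (GENCODE M21), both together, an adjusted p under 0.10, limma 3.58.1 on log2(FPKM + 1) and log2(FPKM + 0.1), and leaving out each sample. Promoters came from RefSeq (GRCm38.p6).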

Additional observations from a re-analysis of the deposited data

Results flagged for a closer look

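For 4 ligands the test of the difference between the 2 injuries passed. The log2 difference (SNA_Saline against Sham_Saline minus DCA against LAM) was 2.67 for Ccl7, 1.85 for Ccl2, 2.28 for Ccl12 and 0.67 for Cxcl12, with edgeR adjusted p-values of 0.0188, 0.0199, 0.0448 and 0.0486. With the replicate block Ccl12 and Cxcl12 did not pass (adjusted p = 0.0770 each), and leaving out single samples ended their calls for 9 and 10 of the 12 samples.

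The FPKM table holds further features of these families that are not in the count table and were in no comparison. Of 45 such features, 2 carry the symbol of a counted member, and the other 43 had a mean of at most 0.530 FPKM (Ccl5). In 5 of them every SNA_Saline sample was above every Sham_Saline sample: Tnfsf9 at a mean of 0.665 FPKM against 0.348, Cxcl13 at 0.270 against 0.0706, Tnfrsf8 at 0.177 against 0.0640, Ccl22 at 0.170 against 0.0892 and Tnfrsf9 at 0.0745 against 0.0337 (n = 3 each). These 5 of 43 are 11.6%, beside 10.3% of the genes in the count table and 2.56% of the 11995 features outside it with a value above 0. The bases of these shares differ. The 43 carry 41 distinct symbols and include 1 feature at 0 in every sample, whereas the 11995 leave such features out. The levels are low and were not tested. Tnf itself was at a mean of 0.0789 FPKM over the 18 samples, with a value above 0 in 14 of them.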

How the results depend on the processing

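Of 932 alternative values of 51 gene results, 801 kept their direction and side of the threshold, 52 passed it newly, 79 lost it, and none changed direction past it. The fit with no filter kept the same 15730 genes as the main fit, so its values were the same by construction. An adjusted p under 0.10 reused the main fit and could only add calls. Part of the 801 was thus fixed in advance. In SNA_Saline against Sham_Saline 5 members passed, 0 with only the groups of the comparison and 2 to 7 with 1 sample left out. In SNA_NAC against Sham_Saline 5 passed, 8 at an adjusted p under 0.10, 0 with only the groups of the comparison, 3 by limma on log2(FPKM + 0.1) and 2 to 10 with 1 sample left out. In Sham_Saline against LAM 0 passed, 6 by DESeq2, 1 with GC and length offsets and 0 to 11 with 1 sample left out. In the difference between injuries 4 passed, 10 at an adjusted p under 0.10, 7 by DESeq2, 8 with GC and length offsets, 2 by limma on log2(FPKM + 1) and 0 to 8 with 1 sample left out. Shares over all genes moved too. At an adjusted p under 0.10, 8.19% of all genes passed in SNA_NAC against Sham_Saline and 15.2% in the difference. DESeq2 passed 7.25% in Sham_Saline against LAM and 11.0% in the difference, where GC and length offsets passed 5.30%. Each highest count with 1 sample left out came without Sham_Saline replicate 1, where 16.2% (SNA_Saline against Sham_Saline), 37.3% (SNA_NAC against Sham_Saline), 31.8% (Sham_Saline against LAM) and 29.2% (the difference) of all genes passed. Fewer samples entered the fits of only the groups compared, but the cause of these shifts was not tested.

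With the replicate block, 4 members passed in SNA_Saline against Sham_Saline, 3 in SNA_NAC against Sham_Saline and 2 in the difference between injuries. In the same order, 2.03%, 2.57% and 0.750% of all genes passed. The block with GC and length offsets gave 8 members and 3.53% of all genes in the last. The block changed no other call of a member. At the depths here, Ccr10, Tnfrsf13c, Ccl1 and Tnfrsf18 had as few as 2 or 3 counts in a sample.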
